A study of Drosophila melanogaster with 3 samples.

Results

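The genes described here encode the subunits of the proteasome in Drosophila melanogaster. They were taken by name, as the protein-coding genes of the Ensembl annotation of build dm6 whose symbol starts with Prosalpha, Prosbeta, Rpn or Rpt followed by a digit. This rule gave 48 of the 13945 protein-coding genes on 6 chromosome arms. No measured value entered it, but it was set with earlier results of these data known. Of the 48 genes, 32 encode the canonical subunits and 16 are copies with an R or a T after the subunit number. Binding of Hairy, a repressor with a basic helix-loop-helix domain that belongs to the HES family and is encoded by h (hry in the current annotation), was measured at them by chromatin immunoprecipitation and sequencing (ChIP-seq).

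There was 1 group, of 3 biological replicates. Each was made from whole wandering larvae of the third instar, of both sexes together, of strain 15T-GFP, which carries h fused to GFP at its C terminus. An antibody against GFP precipitated the sonicated chromatin, so what was measured is the fusion protein and not native Hairy. Whole larvae mix all tissues, and a peak in a few cells cannot be told apart from a weak one in many. Data of the control library that the labels name were not analysed here, so peaks that arise without the fusion cannot be told apart from its binding. Peak lists measure no expression, so the larval tissues could not be checked by marker genes, and the labels give no other group to compare with.

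The proteasome degrades proteins tagged with ubiquitin. Its barrel-shaped 20S core is built of stacked rings. The outer rings of alpha subunits gate the entrance, and the inner rings of beta subunits hold the protease sites, on Prosbeta1, Prosbeta2 and Prosbeta5. The 19S regulatory particle caps the core. Its base, with the Rpt ATPases and the Rpn1, Rpn2 and Rpn13 subunits, unfolds the substrate. Its lid removes the ubiquitin chain through the deubiquitinase Rpn11, and Rpn10 is a ubiquitin receptor at the joint of base and lid. In Drosophila several subunits have extra copies, some of them expressed in the male germ line, as Prosalpha6T is.

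The authors deposited a list of peaks repeated between replicates, called the reproducible list here, with 10233 peaks. They also gave a list of 30000 peaks for each replicate and 1 of 30000 for the replicates pooled. The 10233 strongest peaks of each replicate are called its top list. Peaks were ranked within a list by the authors' signal value, a score with no stated scale, where rank 1 is the strongest. Signal values of the reproducible list ran from 6471 down to 105. Read depth is unknown. A gene counted as bound if a summit, the highest point of a peak, fell in the stretch that starts 1 kb upstream of the gene and ends at its last base. Positions are 1-based on dm6. Reproducible peaks come from these same larvae, so finding them again in a replicate adds no separate evidence. A peak list cannot show a site that was bound but fell below the authors' threshold. Genes are not replicates, and nothing here tests whether a count differs from chance.

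Binding was uneven over the complex. In the reproducible list, 15 of the 48 proteasome genes were bound (31.3%), against 36.7% of all coding genes. It was 31.7% for the 7991 coding genes as long as the proteasome genes, which measure 881 to 4500 bp. Taken by itself, the whole list thus sat near or below the background. All 15 bound genes encode canonical subunits, which is 46.9% of the 32. None of the 16 R or T copies was bound. Within the canonical set, 7 of 8 lid genes, 5 of 9 base genes and 3 of 14 core genes were bound, and Rpn10 was not. These parts also differ in length, with medians of 1984.5 bp for lid, 1748 bp for base and 1201 bp for core genes. The part of length in these shares was not tested.

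The replicates gave like counts for the whole list, but not always from the same genes. Of the 48 proteasome genes, 17, 15 and 14 were in the top lists of replicates 1, 2 and 3, a mean of 31.9% ± 3.18 (SD, n = 3). Of all coding genes they held 38.3%, 37.7% and 36.8%, a mean of 37.6% ± 0.715 (SD, n = 3). Each top list held 7 of the 8 lid genes, but replicate 2 had Rpn6 where the others had Rpn7. The base gave 6, 3 and 4 of 9 genes, and the core gave 4, 4 and 3 of 14. Only 1 core gene, Prosbeta2, was in all 3 top lists. No top list held a copy. Counted gene by gene, 10 proteasome genes were in all 3 top lists, 13 were in 1 or 2 of them and 25 in none.

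**Figure D1:**
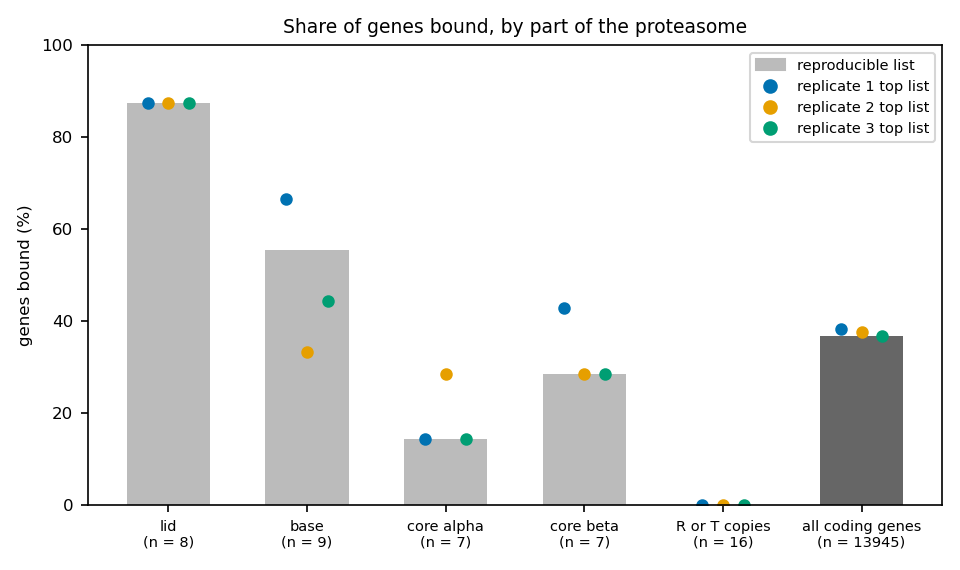
Percentage of genes bound, by part of the proteasome and, at the right, for all coding genes; bars show the reproducible list and points the top list of each replicate. All 3 points of the lid lie at 87.5%, while those of the base spread from 33.3% to 66.7% and all those of the R or T copies lie at 0.

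Upstream sequences are shown for genes that carry the contrasts below. They run 5′ to 3′ towards the gene and end at the base before its start, come from the RefSeq assembly of the same build, and hold no annotated exon. Capitals mark the 8 bases TATCGATA, known as the DNA replication-related element (DRE), its central ATCGAT, or the N-box CACNAG of HES repressors, on either strand. At Rpn2, Rpt6, Rpn12 and Rpn11 the reproducible summit lay inside the stretch, 119, 46, 144 and 116 bases before the start. At Prosbeta2 it lay 159 bases before the start, just outside it. Prosalpha6 was unbound although its stretch holds a full DRE, and Prosalpha6T is its unbound copy.
Rpn2 (chr3R:29153374-29153523, plus strand): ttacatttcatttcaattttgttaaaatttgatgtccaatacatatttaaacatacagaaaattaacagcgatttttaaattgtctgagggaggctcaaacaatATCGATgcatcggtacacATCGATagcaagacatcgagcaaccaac
Rpt6 (chrX:21315902-21316051, plus strand): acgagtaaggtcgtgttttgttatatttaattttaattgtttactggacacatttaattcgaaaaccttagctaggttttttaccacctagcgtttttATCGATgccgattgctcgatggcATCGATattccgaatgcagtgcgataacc
Rpn12 (chr3L:16582878-16583027, plus strand): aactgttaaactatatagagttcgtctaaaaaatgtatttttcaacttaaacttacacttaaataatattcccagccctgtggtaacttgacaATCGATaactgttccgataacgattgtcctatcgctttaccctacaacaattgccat
Rpn11 (chr2L:5059791-5059940, minus strand): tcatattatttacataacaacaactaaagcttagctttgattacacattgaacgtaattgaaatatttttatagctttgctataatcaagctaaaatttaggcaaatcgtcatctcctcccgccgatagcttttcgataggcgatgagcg
Prosbeta2 (chr3L:14999801-14999950, plus strand): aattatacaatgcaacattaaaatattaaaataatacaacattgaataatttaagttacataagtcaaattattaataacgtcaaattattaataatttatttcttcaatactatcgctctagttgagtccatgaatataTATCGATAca
Prosalpha6 (chr2L:10221217-10221350, plus strand): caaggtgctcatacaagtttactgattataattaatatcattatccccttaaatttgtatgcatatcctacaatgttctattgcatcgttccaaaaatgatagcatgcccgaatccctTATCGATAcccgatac
Prosalpha6T (chr2L:13231889-13232038, plus strand): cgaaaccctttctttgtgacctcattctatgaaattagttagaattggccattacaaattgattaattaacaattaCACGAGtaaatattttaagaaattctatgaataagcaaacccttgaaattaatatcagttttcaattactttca
The first 2 hold ATCGAT in duplicate, within 52 bases of the start. Rpn12 holds it once in this stretch. Rpn11 holds none of the 9 motifs searched, and Prosalpha6T holds only an N-box.

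The lid had the highest share of bound genes, and the 2 strongest peaks at proteasome genes were at lid genes. The median rank over bound genes was 5197 for the lid (n = 7), 3328 for the base (n = 5) and 5326 for the core (n = 3), so lid peaks were not stronger throughout. The strongest peak at any proteasome gene was that of Rpn5 (FBgn0028690, chr3R:5789493-5791569, plus strand), a scaffold subunit, with a signal value of 674 and rank 846. It ranked 899, 717 and 1587 in replicates 1, 2 and 3. Its summit lay 249 bp upstream of Rpn5 but 140 bp from the start of Hat1, a gene transcribed the other way, so it cannot be given to either gene alone. A second reproducible summit, of rank 3542, lay 39 bp upstream of Rpn5 itself.

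Rpn3 (FBgn0261396, chr2L:19051790-19053681, plus strand), another scaffold subunit, followed with a signal value of 594 and rank 1067. In replicates 1, 2 and 3 it ranked 825, 1395 and 1353. The summit lay 16 bp inside the gene, in the 5′ UTR, and no coding start was nearer. Rpn5 and Rpn3 stood ahead of every other lid gene in each replicate.

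Rpn11 (FBgn0028694, chr2L:5058404-5059790, minus strand), the deubiquitinase, had rank 3204 with the summit 116 bp upstream. Its replicate ranks were 3048, 3722 and 3849, a mean of 3539.7 ± 431 (SD, n = 3). A second summit lay 317 bp upstream. Rpn12 (FBgn0028693), a scaffold subunit, ranked 5197, and 5057, 7544 and 4727 in replicates 1, 2 and 3. Rpn8 (FBgn0002787), which pairs with Rpn11, had its strongest summit in an intron, 141 bp upstream of an inner start site, at rank 6128. A weaker summit of rank 8121 lay 327 bp upstream of its first start. The strongest peak in its window ranked 4824, 6396 and 7499 in replicates 1, 2 and 3.

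Rpn9 (FBgn0028691), a scaffold subunit, also had an intronic summit, 156 bp upstream of an inner start, at rank 6601. In replicates 1, 2 and 3 it ranked 8500, 6194 and 6676. Rpn7 (FBgn0028688), a scaffold subunit, was the weakest bound lid gene, at rank 7378. In replicate 2 it ranked 12654, past the end of the top list, against 5830 and 8414 in replicates 1 and 3. Its summit lay 236 bp upstream, and 165 bp from the start of AP-2mu, which was nearer. Lid genes thus ranged over most of the list: 3 of the 7 bound ones were among its 5116 strongest peaks.

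Rpn6 (FBgn0028689), a scaffold subunit, was the unbound lid gene, with a peak in 1 replicate. Replicate 2 had a peak of rank 2143 inside the gene, 114 bp upstream of an inner start of Rpn6. Replicates 1 and 3 and the pooled list had no summit in the window. Its nearest reproducible summit lay 16555 bp away.

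**Figure D2:**
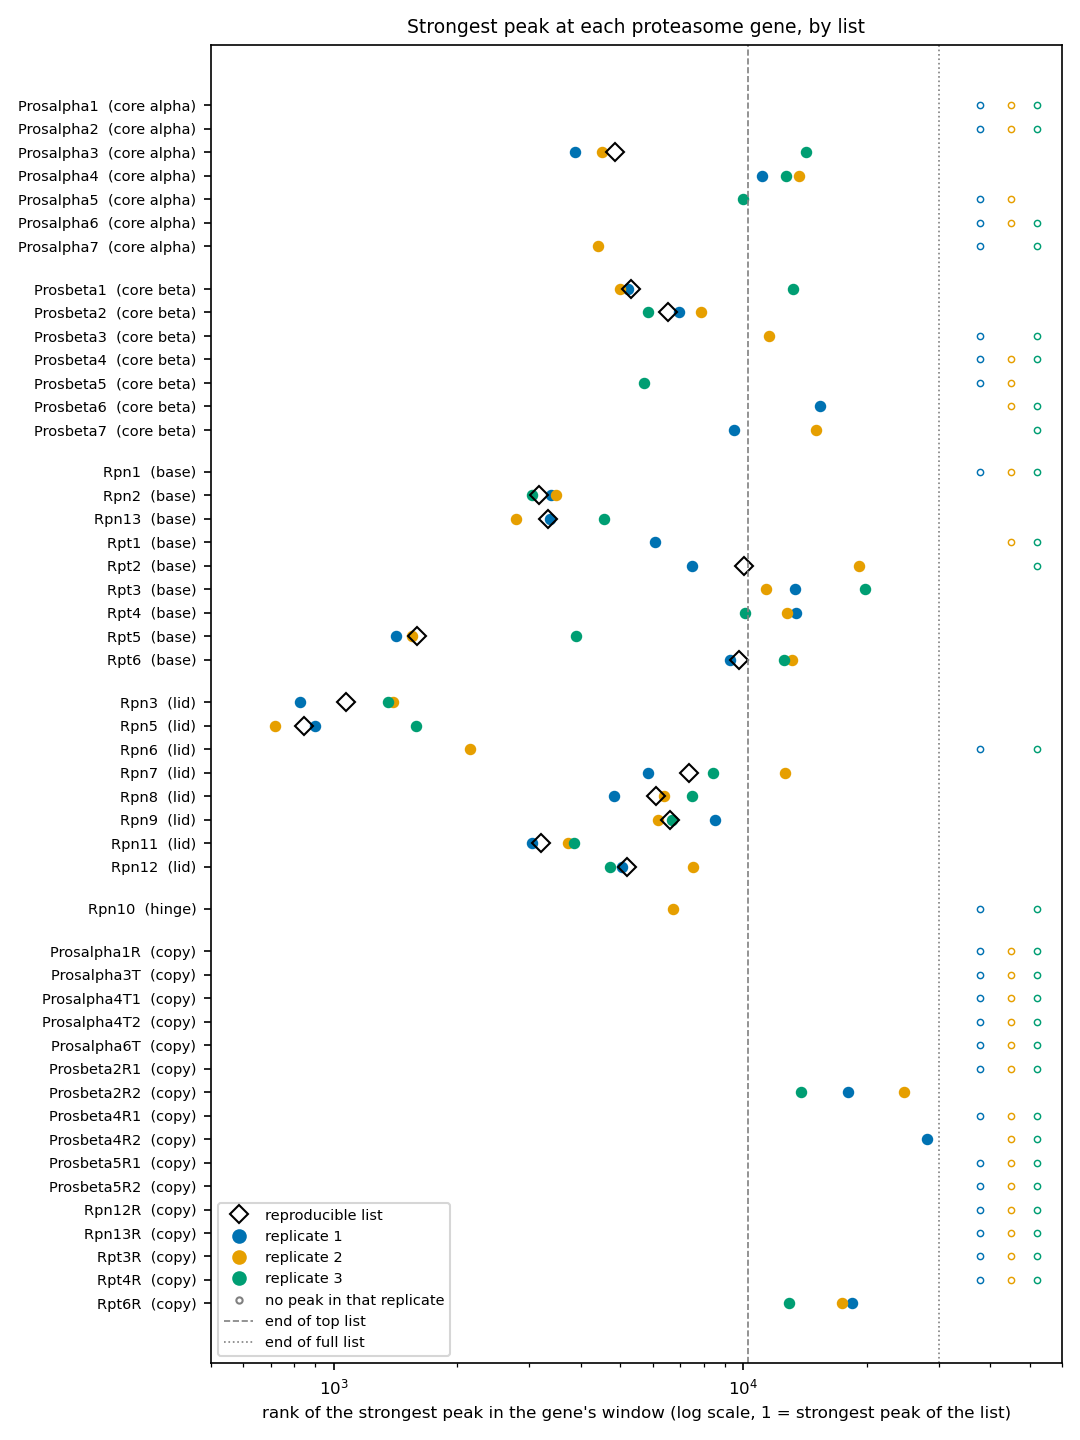
Rank of the strongest peak in the window of each of the 48 proteasome genes (log axis, rank 1 at the left), with diamonds for the reproducible list, filled circles for replicates 1, 2 and 3, and small open circles at the right where a replicate has no peak. Rpn5 and Rpn3 lie farthest to the left, at reproducible ranks 846 and 1067, and no copy has a peak before the end of the top list.

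The base held both strong and weak peaks. Of its 6 ATPase genes, 3 were bound, and of its 3 Rpn genes, 2. Rpt5 (FBgn0028684, chr3R:23752876-23754623, plus strand), an ATPase, had the strongest peak, with a signal value of 471 and rank 1592. It ranked 1420, 1552 and 3897 in replicates 1, 2 and 3. The start of RanBP3, transcribed the other way, lies 42 bp away, and the summit lay between them, 23 bp from Rpt5 and 19 bp from RanBP3. Rpn2 (FBgn0028692, chr3R:29153524-29157255, plus strand), a scaffold subunit, had rank 3160 and the most even replicates of all bound genes: 3385, 3484 and 3044, a mean of 3304 ± 231 (SD, n = 3).

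Rpn13 (FBgn0033886), a ubiquitin receptor, ranked 3328, with 3359, 2787 and 4559 in replicates 1, 2 and 3. It had 2 summits, 104 and 305 bp upstream, and the second was 34 bp from the start of its neighbour CtsL1. The ATPases Rpt6 (FBgn0020369) and Rpt2 (FBgn0015282) stood at the weak end, at ranks 9756 and 10046. Rpt6 ranked 9286, 13146 and 12565 in the replicates, so only replicate 1 had it in its top list. Rpt2 ranked 7496 and 19141 in replicates 1 and 2 and had no peak in replicate 3. Without any 1 of the 3 replicates, that is with the summit in the top lists of both others, 3 base genes stayed bound. Rpt2 and Rpt6 were lost each time. Of all coding genes, 31.1% to 32.7% stayed bound by this rule.

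The unbound base genes differed. Rpt3 and Rpt4, both ATPases, had a peak in every replicate, at ranks of 11358 to 19783 for Rpt3 and 10113 to 13443 for Rpt4. Only replicate 3 had Rpt4 in its top list, and none had Rpt3. The pooled list placed Rpt4 at 10531 and Rpt3 at 12400. Rpt1, also an ATPase, had a summit 12 bp upstream in replicate 1 at rank 6080 and none in the others. Rpn1, the large scaffold and receptor subunit, had no peak in any list.

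The 20S core had the fewest bound canonical genes. Of the 7 alpha genes, 1 was bound, Prosalpha3 (FBgn0261394), at rank 4842 with the summit 39 bp upstream. Of the 7 beta genes, 2 were bound, both of them catalytic. Prosbeta1 (FBgn0010590), the caspase-like subunit, had rank 5326 and a summit 54 bp upstream. Prosbeta2 (FBgn0023174, chr3L:14999951-15001319, plus strand), the trypsin-like subunit, had rank 6542. Its summit, 159 bp upstream, was nearer to mRpL39, at 126 bp.

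Replicate 3 ranked Prosalpha3 and Prosbeta1 far lower than the other replicates did. Prosalpha3 ranked 3880, 4514 and 14204 in replicates 1, 2 and 3, and Prosbeta1 ranked 5233, 4986 and 13202. Prosbeta2 was the only core gene in all 3 top lists, at 6952, 7877 and 5852. Without replicate 1 or without replicate 2, no alpha gene and 1 beta gene stayed bound. Without replicate 3, the counts stayed at 1 and 2. The shares of all coding genes were 31.1%, 31.4% and 32.7% without replicates 1, 2 and 3.

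Prosbeta5 (FBgn0029134), the chymotrypsin-like subunit and the remaining catalytic one, was not bound. Replicate 3 alone had a summit there, 20 bp upstream, at rank 5717. Prosalpha4 had a peak in every replicate, at ranks 11101, 13682 and 12704, all past the end of the top lists. Prosbeta7 ranked 9492 in replicate 1 and 15014 in replicate 2, and had no peak in replicate 3. Prosbeta3 had a peak only in replicate 2, at rank 11518, and Prosbeta6 only in replicate 1, at 15365. Prosalpha7 had one in replicate 2, at rank 4408, and Prosalpha5 one in replicate 3, at rank 9977. Prosalpha1, Prosalpha2, Prosalpha6 and Prosbeta4 had no peak in any list. Of all 33 unbound proteasome genes, 8 had a peak in the pooled list (5 canonical genes and 3 copies) and 25 had none.

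The plot of ranks also shows genes with a single high-ranked circle. Such summits, in the top list of 1 replicate and in no peak of another replicate or of the pooled list, were counted after this was seen. They made up 82, 85 and 162 of the 10233 top-list peaks in replicates 1, 2 and 3. Their summits lay in the windows of 6 of the 32 canonical genes (18.8%) and of none of the 16 copies, against 3.12% of all coding genes. The 6 genes were Prosalpha5, Prosalpha7, Prosbeta5, Rpt1, Rpn6 and Rpn10. By definition such summits lie outside every pooled peak, and none of these genes had a reproducible summit elsewhere in its window. Each such summit lay within 114 bp of a start site of the gene, but for a second one at Prosalpha7, 238 bp upstream. At Rpn6 that start is an inner one, and the summit lay inside the gene.

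Of these 6 genes, 5 lie on arm 2R, which held 22.5% of all such summits and 13 of the 48 proteasome genes. Rpn10 (FBgn0015283), the ubiquitin receptor between base and lid, lies on arm 3L and had its summit in replicate 2, at rank 6731, 5 bp inside the gene. Replicate 2 held 3 of the 6 genes, replicate 3 held 2 and replicate 1 held 1. With a summit in at least 1 top list as the rule, 23 of the 48 proteasome genes were bound, against 43.9% of all coding genes. These were 23 of the 32 canonical genes, with all 8 lid genes among them, and none of the copies. Why a peak of such rank was missing from the pooled list was not tested.

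The R or T copies lay outside the bound regions in every top list. None of the 12 R copies and none of the 4 T copies was in the reproducible list or in a top list. The share was 25.7% for the 3673 coding genes of the same length, 881 to 1778 bp. Weak peaks were found at 3 of them in the pooled list: Prosbeta2R2 at rank 18034, 90 bp upstream, Rpt6R at rank 15800, 72 bp upstream, and Prosbeta4R2 at rank 20926, 1103 bp inside the gene. Rpt6R ranked 18445, 17424 and 12921 in replicates 1, 2 and 3, and Prosbeta2R2 ranked 18015, 24619 and 13841. Prosbeta4R2 had a peak only in replicate 1, at rank 28114. The other copies had no peak in any list: Prosalpha1R, Prosalpha3T, Prosalpha4T1, Prosalpha4T2, Prosalpha6T, Prosbeta2R1, Prosbeta4R1, Prosbeta5R1, Prosbeta5R2, Rpn12R, Rpn13R, Rpt3R and Rpt4R.

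The distance to bound sites was also measured. From the start of a copy to the nearest reproducible summit the median was 10789.5 bp (n = 16), with Prosbeta4R1 and Prosbeta4R2 the farthest at 67508 and 65160 bp. For the 17 unbound canonical genes the median was 4132 bp, and for the 8825 unbound coding genes 8526 bp. Canonical genes with and without a copy were both bound in part: 5 of the 12 subunits with a copy were bound, and 10 of the 20 without one. The 5 were Prosalpha3, Prosbeta2, Rpn12, Rpn13 and Rpt6.

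Where proteasome genes were bound, the summit was at the promoter. Counting only summits within 500 bp of a start, the same 15 of the 48 proteasome genes were bound (31.3%), against 29.8% of all coding genes. The strongest summit was that near in all 15, against 66.8% of bound coding genes. The strongest summit lay a median of 116 bp from the gene's own start, against 214 bp over all bound coding genes. The bound coding genes were not matched for length here. Proteasome genes are shorter, with a median of 1381.5 bp against 2166 bp for all coding genes, which leaves less room for distant summits. It was upstream of the gene in 11 cases, in the 5′ UTR in 2 and in an intron in 2, and in no case in a coding exon. Most bound genes, 11 of 15, had a single summit, and 4 had 2.

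**Figure D3:**
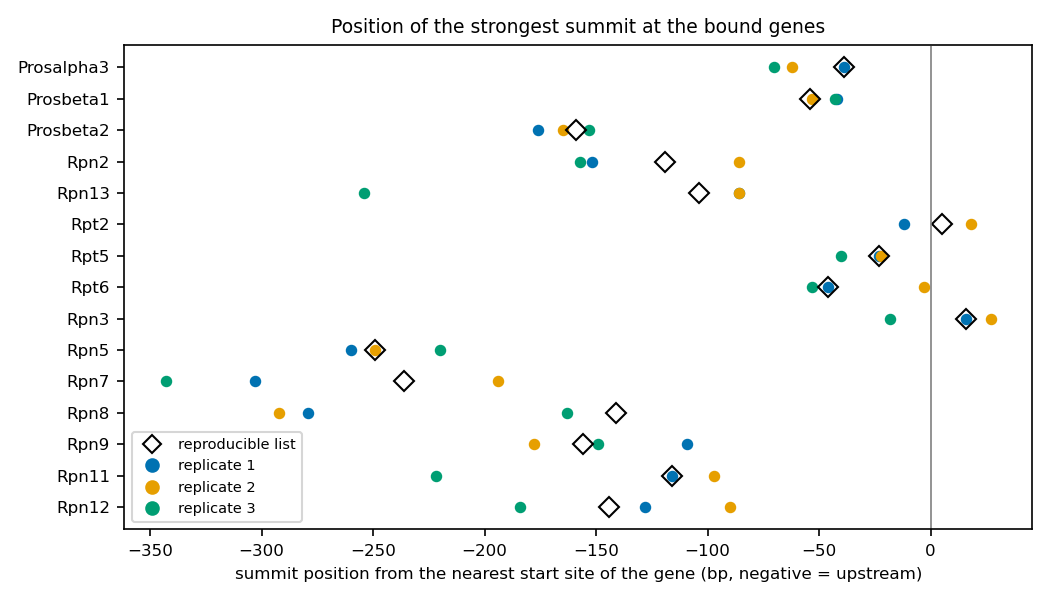
Position of the strongest summit from the nearest start site of each of the 15 bound genes, in bp with upstream negative; diamonds show the reproducible list and circles the 3 replicates. The reproducible summits lie from 249 bp upstream at Rpn5 to 16 bp downstream at Rpn3. On this axis the circles of each gene lie at most 168 bp apart. At Rpn8 the circle of replicate 2 is measured from the other start site, so the axis does not show its distance from the other circles.

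Summit positions were repeated to different degrees. The replicate summits of Prosbeta1 spanned 11 bp, those of Rpt5 18 bp and those of Prosbeta2 23 bp. At Rpn13 they spanned 168 bp and at Rpn7 149 bp. Replicate 3 lay farthest upstream at both of these genes. At Rpn8 replicates 1 and 3 had their strongest summit at the inner start, and replicate 2 at the first one, so they spanned 3106 bp.

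The median rank of the strongest peak was 5197 for the 15 bound proteasome genes, against 3330.5 for all bound coding genes. Among the 5116 strongest peaks of the reproducible list 7 of the 48 genes were bound, against 24.8% of all coding genes. Summits in all 3 top lists were found at 10 of the 48, against 29.9% of all coding genes.

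Many of these promoters are shared. A coding gene on the other strand starts within 1 kb upstream of 19 of the 32 canonical genes (59.4%) and of 3 of the 16 copies (18.8%), against 33.3% of all coding genes. Of the canonical genes with such a neighbour 52.6% were bound, and of those without one 38.5%. Over all coding genes the shares were 50.6% and 29.8%. The strongest summit fell in the windows of 2 or more coding genes at 14 of the 15 bound genes, Rpn12 being the exception, against 53.3% of bound coding genes. The gene's own start was nevertheless the nearest at 11 of the 15, against 70.6% of bound coding genes.

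With each summit given only to the gene with the nearest coding start, 15 of the 48 proteasome genes were bound, against 33.7% of all coding genes. Under this rule Rpt5 and Rpn7 were lost to their neighbours RanBP3 and AP-2mu. The promoter summit of Prosbeta2 went to mRpL39, and Prosbeta2 still counted only through 3 summits outside its window, 5326 to 7037 bp past its start. The copies Prosbeta5R1 and Rpn13R were gained, from summits 10279 and 12124 bp away. Rpn5 was kept through its second summit.

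Sequence motifs were searched from 250 bp upstream to 50 bp downstream of each gene start, on both strands. Sites of basic helix-loop-helix factors were searched first, among them those known for Hairy and related repressors. CACGCG, the class C site that purified Hairy prefers, and the class B E-box CACGTG were in none of the 32 canonical promoters and in none of the 16 promoters of copies, against 6.12% and 4.20% of all coding promoters. The N-box CACNAG was in 10 of the 32 canonical promoters (31.3%) and in 7 of the 16 of copies (43.8%), against 29.7% of all coding promoters. The class A E-box CAGCTG, not counted here as a site of Hairy, was in 1 canonical promoter and 1 of a copy, against 17.7%. No match means only that these letters are not in this window.

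The DRE TATCGATA, the site of DREF and BEAF-32 at many housekeeping promoters, was in 12 of the 32 canonical promoters (37.5%) and in none of the 16 of copies, against 9.36% of all coding promoters. Over the 4151 coding genes with a summit within 500 bp of a start it was in 13.5%. Among the canonical genes it was in 9 of the 15 bound and in 3 of the 17 unbound ones. The bound ones were Prosalpha3, Prosbeta1, Prosbeta2, Rpn13, Rpt5, Rpn3, Rpn7, Rpn9 and Rpn12, and the unbound ones Prosalpha5, Prosalpha6 and Prosbeta6. Every full DRE also holds the shorter core ATCGAT. That core was in 12 of the 15 bound and 5 of the 17 unbound canonical promoters, and in 23.3% of all coding promoters. These counts are a description of few genes and were not tested.

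**Figure D4:**
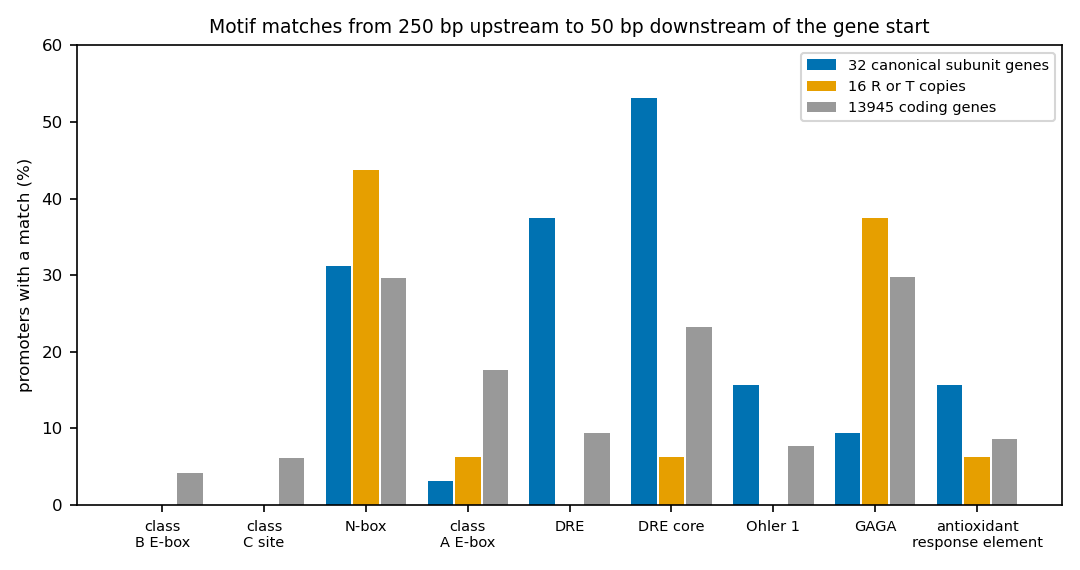
Percentage of promoters with at least 1 match to each of 9 motifs, for the canonical subunit genes (left bar), the R or T copies (middle bar) and all coding genes (right bar). The DRE bars stand at 37.5%, 0 and 9.36%. No canonical or copy promoter holds the class B or class C site from 250 bp upstream to 50 bp downstream of the start.

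Motifs were also searched around the summits. Within 100 bp of the strongest summit, 5 of the 15 bound genes held a DRE and 10 held its core, against 6.93% and 16.4% of the 4067 reproducible summits within 500 bp of a coding start. The N-box was within 100 bp of 1 of the 15 summits, at Rpn13, against 22.8%. In the promoter window it was in 3 of the 15 bound and 7 of the 17 unbound canonical genes. The class B and C sites were at none of the 15 summits, against 2.46% and 7.82%. The class A E-box was at 2 of the 15 summits (13.3%), against 13.3% of promoter summits, and the Ohler 1 element GGTCACAC also at 2 (13.3%), against 4.65%. Both times these were the intronic summits of Rpn8 and Rpn9. Ohler 1 is a core promoter element that M1BP binds in Drosophila.

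GAGA, the site of GAGA factor, searched as GAGAG, was in 3 of the 32 canonical promoters (9.38%) and in 6 of the 16 of copies (37.5%), against 29.7% of all coding promoters. With 100 bp on each side of the start as the window it was in 3 of the 32 canonical promoters (9.38%) and in only 1 of the 16 of copies (6.25%), against 22.4% of all coding promoters. The antioxidant response element TGACNNNGC, bound by cnc with small Maf, was in 5 of the 32 canonical promoters (15.6%) and in 1 of a copy, against 8.63% of all coding promoters. These 5 were Prosalpha2, Prosbeta3, Rpn1, Rpt6 and Rpn7, and Rpt6 and Rpn7 were bound. Ohler 1 was also in 5 (15.6%), against 7.70%.

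Genes that act with the proteasome were looked at as well. Of 21 listed genes for assembly, regulation, ubiquitin supply and delivery, 14 were bound (66.7%), against 36.7% of all coding genes. The list was drawn up with earlier results of these data known, so its share is a description only. The top lists of replicates 1, 2 and 3 held 15, 16 and 14, a mean of 71.4% ± 4.76 (SD, n = 3). They are also longer, with a median of 2772 bp, against 1390 bp for canonical subunit genes and 2166 bp for all coding genes. The part of length in their share was not tested.

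The strongest of them were at regulators. cnc, the bZIP factor that activates proteasome genes in Drosophila when proteasome function falls short, had 15 reproducible summits, the strongest at rank 705, over its 41132 bp. Keap1, which restrains cnc, had 4, with the strongest at rank 731 and 838 bp upstream, nearer to the start of kuk, at 539 bp. maf-S, the small Maf partner of cnc, was bound at rank 5081, with the start of CG11110 nearer. Pngl, a peptide N-glycanase, was bound at rank 4436, 44 bp upstream.

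Pomp, an assembly factor of the core, was bound 219 bp upstream at rank 1642. The deubiquitinase Uch-L5 was bound 12 bp upstream at rank 3502, and REG, an activator of the core, 1872 bp inside the gene at rank 5828. PI31, which binds the core, was at rank 6573 with the start of ADD1 nearer. The ubiquitin shuttles rngo and Ubqn were bound at ranks 2141 and 7310, and the start of dome was nearer to the Ubqn summit, at 98 bp. The activating enzyme Uba1 was bound at rank 5342, and the polyubiquitin genes Ubi-p63E and Ubi-p5E at 4260 and 5888. Ufd1, a cofactor of the ATPase p97, was at rank 5870, with the start of NaPi-III nearer, at 54 bp. Unbound were Usp14, Sem1, Rad23, RpS27A, RpL40, TER94 and Npl4. Sem1, the small remaining lid protein, lies outside the naming rule and had no summit in a top list, while each of the 8 lid genes above had one in at least 1.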

How the data were processed

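Hairy-GFP ChIP-seq of whole larvae was deposited as peak lists on builds dm6 and dm3, and the dm6 lists were used. Per the deposited notes, the lists were derived from the replicate alignments and a control. Not given in the sources used here are the aligner, the peak caller and the threshold for repeated peaks. The signal value is a score that the authors gave each peak, and summits came from the deposited offset within each peak, another value of the authors. Peaks of each replicate were called per sample. Depth is unknown, so no interval is given.

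Genes came from Ensembl release 115 and sequence from the RefSeq assembly of the same build. Counts, ranks, distances and motif matches were computed with Python 3.11.15 and NumPy 2.4.6. The assignment of summits to windows was tested on simulated data and found all 200 genes given a summit. The rule for the members used names only. It was set, as were the gene lists, motifs and alternatives, with earlier results of these data known. Any member may be named, neighbours only where their start is nearest to a member's summit, and the other genes as listed. No test was made, since 1 group allows no comparison and genes are not replicates. Alternatives were the window, the gene assignment, the overlap rule, the list and its length, each replicate left out in turn, and the motif window.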

Additional observations from a re-analysis of the deposited data

How the results depend on the processing

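The count of 15 bound proteasome genes kept within 1.5 times under another window, nearest-start assignment, peak overlap and summits in all 3 top lists. It became 23 with the pooled list, against 52.2% of all coding genes, and 7 with the 5116 strongest reproducible peaks. Leaving out 1 replicate gave 10 to 12 genes. With the wide window of 5 kb upstream to 1 kb past the gene, 52.5% of all coding genes were bound. Their share was 29.9% with all 3 top lists, 33.7% with nearest starts and 24.8% with the 5116 strongest. Without 1 replicate it was 31.1% to 32.7%. For the 7 alpha genes the count was 2 with the wide window, 2 with the pooled list and 0 with all 3 top lists, and 0 to 1 without 1 replicate. For the 7 beta genes it was 4 (57.1%), 4 (57.1%) and 1, then 0 with the 5116 strongest, and 1 to 2 without 1 replicate. The base gave 3 of 9 genes (33.3%) with the 5116 strongest, 3 in all 3 top lists, and 3 without any 1 replicate. The lid gave 3 of 8 (37.5%) with the 5116 strongest, near the share of the base, and 6 to 7 without 1 replicate. Copies gave 1 with the wide window (Prosbeta2R2), 2 with nearest starts, 3 with the pooled list, and 0 without any 1 replicate, as Rpn10 did. The replicate mean of 31.9% was 48.6% with the full lists and 18.1% with lists of 5116 peaks, against 55.7% and 25.0% of all coding genes, and 30.2% to 33.3% without 1 replicate. The motif window was also set to 100 bp on each side of the start. The N-box was then in 5 of the 32 canonical promoters (15.6%), against 23.8% of all coding promoters. The class A E-box was in 0, against 13.8%, and the DRE in 9 (28.1%), against 7.84%. GAGA fell to 1 of the 16 promoters of copies, against 22.4%. The class B E-box was in 1 of the 16 promoters of copies, against 2.88%, and in no canonical promoter. The causes were not tested. Depth is unknown, so how weak a bound site could be and still be listed is unknown too.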
